A study of Mus musculus with 6 samples.

Results

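The baseline transcriptome of unmodified 4T1 cells was described from the 3 libraries labelled 4T1 WT, of 6 in the series. 4T1 is a line from a BALB/c mouse mammary carcinoma that grows and spreads in immunocompetent mice, and it is widely used as a model of aggressive breast cancer. The series set 4T1 GPD2 KO cells, in which Gpd2 was targeted with guide RNAs and Cas9, against 4T1 WT cells, with 3 libraries of each. The treatment field of the labels names the guide and Cas9 vector for the WT samples too, whereas the methods describe transfection for the KO lines, and which of these holds for the WT cells is not known. The study states as a general rule that its samples were biologically independent, and the labels do not say for these libraries whether the cultures were separate. No KO against WT test was made, and the KO libraries were used only to check the labels.

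RNA abundance in a cell line is set by housekeeping programmes, which take a large part of the transcripts, and by lineage programmes, which tell the cell type. Ribosomal proteins, translation factors, chaperones, cytoskeleton proteins and glycolytic enzymes make up the first kind in dividing cells. Keratins, junction proteins, vimentin and lineage transcription factors place a carcinoma line between an epithelial and a mesenchymal state, and the member of an enzyme family that is used differs between tissues. TPM divides reads by transcript length and scales each library to the same total, so that levels of different genes can be set side by side.

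The table held 12534 genes. Its lowest read count in any of the 6 libraries was 1, so a gene at 0 in a library was outside it, and genes without an entry were not analysed here. The WT libraries had 55127353, 59846170 and 53464439 counts. Their genes summed to 997636, 997365 and 997341 TPM, so between 0.236% and 0.266% of the TPM scale lay on features not analysed here. No mitochondrially encoded gene was analysed. Gpd2, the mitochondrial glycerol-3-phosphate dehydrogenase on chromosome 2 (GRCm38, 57237678 to 57370719), was at 9.90, 9.95 and 9.88 TPM in the GPD2 KO libraries, against 51.6, 52.1 and 52.0 TPM in the WT libraries. The targeted gene thus went with the labels in every library. Pairs of WT libraries had a Pearson r of 0.996 for log2(TPM + 1) across 12534 genes, which are not independent replicates. Their counts differed by more than sampling noise, with a chi-square of 17.8, 21.8 and 24.7 per degree of freedom, so they were kept as 3 libraries. The statistic sums over all genes, so single entries with unequal counts can weigh heavily in it. Rn45s, for example, had 71681, 84963 and 195044 counts in WT 1, 2 and 3. With 3 libraries an exact two-sided sign-flip test cannot go below p = 0.25, so differences between genes are given with their spread and without a test.

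Abundance was concentrated in few genes. A mean of at least 1 TPM was reached by 11240 genes (89.7%), at least 10 TPM by 8626, at least 100 TPM by 1847 and at least 1000 TPM by 131. The 131 genes at or above 1000 TPM held 32.4% ± 0.025 of all TPM (SD, n = 3), and the 1716 genes between 100 and 1000 TPM held 40.5% ± 0.112. By contrast, the 1294 genes below 1 TPM held 0.052% of it. The median gene was at 23.3 TPM, and the 10 highest genes of a library took 6.64% ± 0.0567 of its TPM. The 3 libraries shared 9 of their 10 highest, 26 of their 30 highest and 97 of their 100 highest genes. At the low end, 339 genes had fewer than 10 counts in each WT library.

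**Figure D1:**
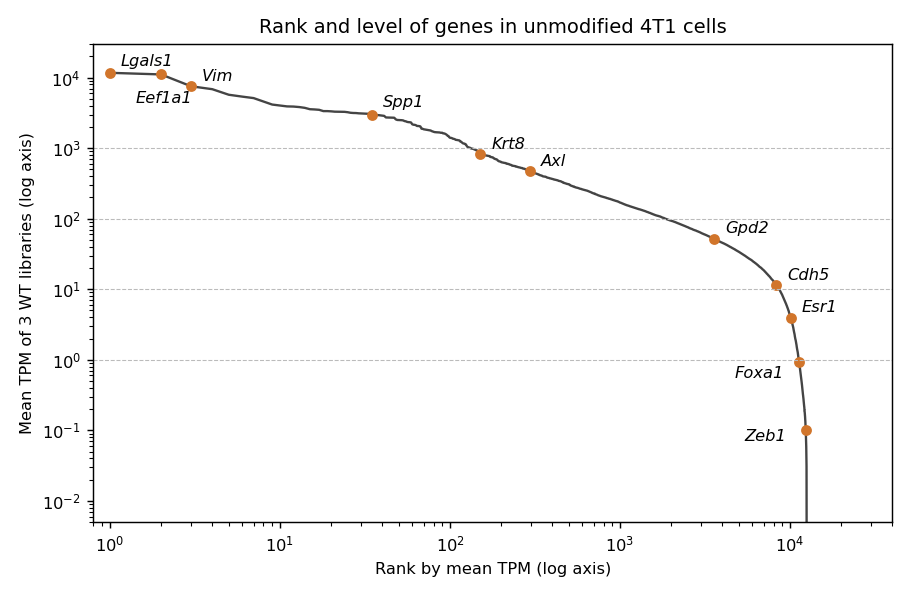
Mean TPM of the 3 WT libraries (y axis, log scale) against the rank of the gene (x axis, log scale); the line runs through all genes with a mean above 0, dashed lines mark 1, 10, 100 and 1000 TPM, and orange points mark named genes. Lgals1 was at 11708 TPM and Gpd2 at 51.9 TPM, and the curve dropped steeply past Esr1 at 3.94 TPM.

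The highest gene was Lgals1 on chromosome 15 (GRCm38, 78926725 to 78930465), which encodes galectin-1, a secreted sugar-binding protein. It was at 11667, 11959 and 11497 TPM in WT 1, 2 and 3. Eef1a1, the elongation factor that brings aminoacyl-tRNA to the ribosome, followed at 11260, 11410 and 10635 TPM, below Lgals1 in every library. Vim, which encodes the mesenchymal intermediate filament vimentin, came next at 7578, 7737 and 7324 TPM. Ppia, the peptidyl-prolyl isomerase cyclophilin A, was at 6977, 6789 and 6808 TPM. The ranges of these 4 genes did not overlap. Below them came Rplp1, an acidic protein of the ribosomal stalk, at 5722 ± 105 TPM and S100a6, a calcium-binding protein, at 5381 ± 136 TPM (SD, n = 3).

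The next places went to Tpt1 (5128 TPM), which encodes the translationally controlled tumour protein, and Npm1 (4578 TPM), which encodes the nucleolar chaperone nucleophosmin. Ftl1 and Fth1, the light and heavy chains of the iron store ferritin, were at 4154 ± 186 and 3911 ± 151 TPM, and their ranges overlapped. Ptma, which encodes prothymosin alpha, was at 3889 TPM, and S100a4, a calcium-binding protein known from migrating and metastatic cells, at 3499 ± 80.2 TPM. Pkm, pyruvate kinase of the glycolytic pathway, reached 3154 TPM and Hspa8, the constitutive HSC70 chaperone, 3148 TPM. Ribosomal protein genes took 17 of the 30 highest places, among them Rpl23a (4021 TPM), Rpl4 (3827 TPM), Rpl19 (3730 TPM), Rpl12 (3568 TPM) and Rps9 (3540 TPM). Rpl7a, Rps12, Rpl41, Rpl13, Rpl35, Rack1, Rps27a, Rpl8, Rpl28 and Rps24 lay between 3109 and 3354 TPM.

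Genes were placed in 19 classes by symbol, and the 11689 genes in no class held 55.2% of TPM. Among the 19 classes, cytosolic ribosomal proteins were the most abundant. Their 85 genes held 17.3%, 17.2% and 17.4% of TPM in WT 1, 2 and 3, and 70 of them were at or above 1000 TPM. The class median was 1887 TPM, beside 23.3 TPM over all genes. The class share depended on the unit, because these transcripts are short: by reads it was 6.36%. Translation factors (66 genes) held 4.29% ± 0.029 (SD, n = 3), and heat shock proteins and chaperones (92 genes) held 3.48% ± 0.0652. Annexins, S100 proteins and galectins, which bind calcium, membranes or sugars, held 2.95% ± 0.00488 in 28 genes, and 1.20% by reads.

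Nuclear genes of the respiratory chain and ATP synthase (82 genes) held 2.52% ± 0.0202 of TPM and 1.10% of reads, led by Atp5b at 1728 TPM. The 18 enzymes of glycolysis and lactate formation held 1.75%, 1.66% and 1.63% in WT 1, 2 and 3, with a median of 394 TPM, and 7 of them were at or above 1000 TPM. Actin, tubulin and small cytoskeleton proteins held 2.45% ± 0.0126, with Actb at 3073 TPM and Actg1 at 1567 TPM. Keratins and vimentin held 0.936% in 7 genes, and ferritin 0.809% in 2 genes (0.357% by reads). Proteins of the proteasome and ubiquitin system held 1.26% (0.832% by reads) and had no gene at 1000 TPM, with Psma7, a subunit of the proteasome core, highest at 737 TPM. MHC class I genes held 0.262% (0.138% by reads), of which B2m, the invariant light chain, was at 1612 TPM. The 34 enzymes of sterol and fatty acid synthesis held 0.228%, and 0.483% by reads.

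**Figure D2:**
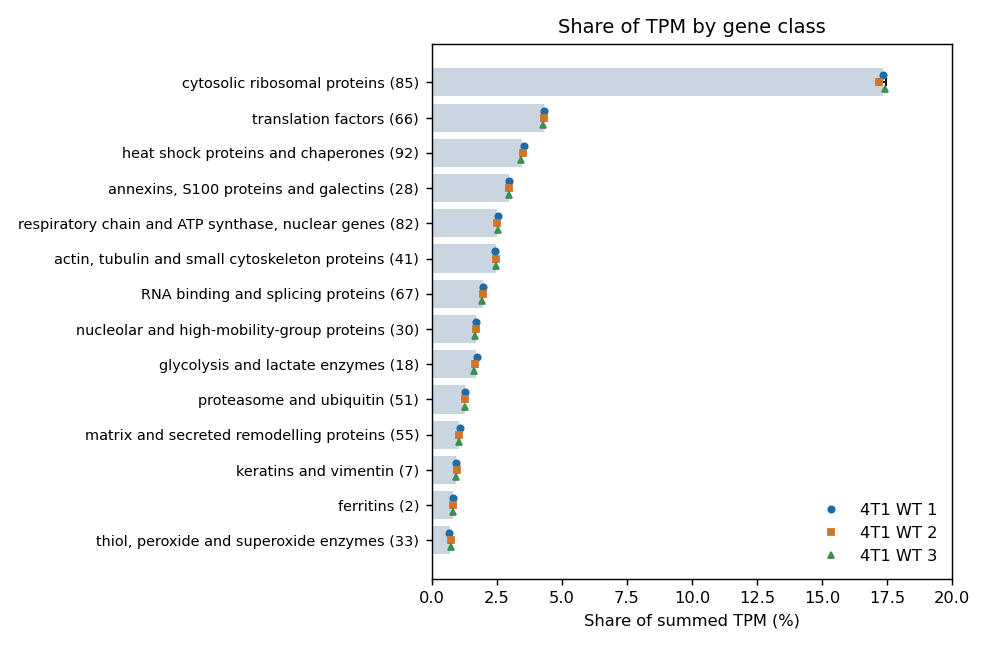
Share of the summed TPM (x axis, percent) held by each of the 14 largest gene classes, with the number of genes in parentheses; bars are means of the 3 WT libraries, error bars are SD and points are single libraries. Cytosolic ribosomal proteins held 17.3% and the next class, translation factors, 4.29%, and the libraries lay close together in every class.

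Messenger RNAs of the translation machinery are known for a start that runs C and then only C or T, the terminal oligopyrimidine tract, through which growth signalling regulates their translation. Transcription start regions from RefSeq (GRCm38.p6) were matched by gene identifier for 9738 of the 12534 genes, taking 1 region per gene. Of 64 ribosomal protein genes with a region, 16 (25%) began with C at the start site followed by 4 bases that were each C or T, read on the transcribed strand. Of all 32851 regions, 823 (2.51%) began that way. The share was 11.1% among the 99 genes at or above 1000 TPM, 0 of 47 once ribosomal protein genes were left out, and between 2.1% and 2.93% in the lower bands of level. Within the ribosomal protein genes, the 16 with such a start had a median of 1514 TPM and the other 48 a median of 1849 TPM. A match describes the annotated start and not the start used in these cells. The 30 bases from 10 before the start to 20 after it are printed 5′ to 3′ for 6 ribosomal genes with the pyrimidine run from the start site in capitals, and for Eef1a1 and Ppia, whose annotated starts did not match.
Rpl35 (chr2:39005112-39005141, minus strand): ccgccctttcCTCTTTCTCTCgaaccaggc
Rack1 (chr11:48800350-48800379, plus strand): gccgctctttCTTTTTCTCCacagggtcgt
Rpl28 (chr7:4792955-4792984, plus strand): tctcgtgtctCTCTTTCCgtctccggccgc
Rplp2 (chr7:141447641-141447670, plus strand): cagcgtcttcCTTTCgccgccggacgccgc
Rps10 (chr17:27635225-27635254, minus strand): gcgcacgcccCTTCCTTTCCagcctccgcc
Rpl38 (chr11:114668570-114668599, plus strand): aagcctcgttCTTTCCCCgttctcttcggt
Eef1a1 (chr9:78481705-78481734, minus strand): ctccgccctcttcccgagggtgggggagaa
Ppia (chr11:6415857-6415886, plus strand): aggctcgtgccgctttgcagacgccactgt

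Promoters of genes used in every tissue are known to be rich in the dinucleotide CG, and those of tissue-restricted genes often are not. The 250 bases before the start held a median of 16 CG in genes at or above 1000 TPM, 18 between 100 and 1000 TPM, 17 between 10 and 100 TPM, 14 between 1 and 10 TPM and 7 below 1 TPM. Over all 32851 regions the median was 6. The median therefore differed more between genes below 1 TPM and the rest than among the abundant genes. The quartiles overlapped, at 3 to 17 CG below 1 TPM and 10 to 21.5 CG at or above 1000 TPM. Among abundant genes the range was wide, since Ppia had 38 CG, Vim 8, Krt8 3, Spp1 3 and S100a4 2. Ppia and S100a4, both among the 30 highest genes, are printed as the ends of the range over these 5 genes and Vim as a lineage gene between them, 250 bases each, with every CG in capitals.
Ppia (chr11:6415617-6415866, plus strand): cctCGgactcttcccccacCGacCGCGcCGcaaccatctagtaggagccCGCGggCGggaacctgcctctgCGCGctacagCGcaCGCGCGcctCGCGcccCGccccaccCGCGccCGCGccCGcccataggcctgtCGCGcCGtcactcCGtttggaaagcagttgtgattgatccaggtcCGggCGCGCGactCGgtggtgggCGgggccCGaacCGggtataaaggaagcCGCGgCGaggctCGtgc
Vim (chr2:13574061-13574310, plus strand): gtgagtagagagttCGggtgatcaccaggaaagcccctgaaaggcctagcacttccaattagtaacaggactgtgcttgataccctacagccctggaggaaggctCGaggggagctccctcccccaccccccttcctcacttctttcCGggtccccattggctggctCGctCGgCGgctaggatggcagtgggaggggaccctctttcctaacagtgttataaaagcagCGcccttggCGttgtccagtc
S100a4 (chr3:90603520-90603769, plus strand): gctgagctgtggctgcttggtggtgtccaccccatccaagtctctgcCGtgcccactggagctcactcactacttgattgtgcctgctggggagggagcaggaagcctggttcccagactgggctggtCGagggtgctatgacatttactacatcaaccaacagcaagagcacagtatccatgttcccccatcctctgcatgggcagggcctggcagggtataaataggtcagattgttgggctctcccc

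Simple epithelial keratins were abundant, whereas stratified keratins were nearly all outside the table. Krt8 and Krt18, which pair in the filaments of simple and luminal epithelium, were at 834, 856 and 795 TPM and at 781, 788 and 767 TPM in WT 1, 2 and 3. Their ranges did not overlap, although their means, 828 and 779 TPM, were close. Krt7, a simple keratin of ducts, was at 141, 160 and 147 TPM, and Krt80 at 31.9 ± 1.84 TPM (SD, n = 3). Krt19 was not analysed here. Of 11 basal and stratified keratins listed, only Krt10 was analysed, at 2.01 TPM, and the basal keratins Krt5, Krt14 and Krt17 were not analysed here. Vim exceeded the sum of the 4 simple keratins in every library, since that sum was 1787, 1838 and 1739 TPM.

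Of 34 genes of epithelial junctions 17 were analysed and 16 were at or above 1 TPM, beside 89.7% of all genes. Their median was 44.7 TPM, beside 23.3 TPM for all genes. Catenins led the list. Ctnnb1, the catenin that links cadherins to actin and carries Wnt signals, was at 491, 492 and 485 TPM, Ctnna1 at 294 TPM and Ctnnd1 at 148 TPM. Lsr, a protein of tricellular junctions, was at 113, 116 and 118 TPM, Tjp1, the scaffold ZO-1, at 82.8 ± 0.792 TPM, and Pkp4, a plakophilin, at 62.4 TPM. Evpl, the cornified envelope protein envoplakin, was lowest at 0.0569 TPM. Cdh1, Epcam, Cldn3, Cldn4, Cldn7 and Dsp, which many definitions of an epithelial cell rest on, were not analysed here. Catenins also serve other cadherins. The epithelial reading therefore rested on the simple keratins and on other junction genes, such as Lsr and Ocln (18.9 TPM). These genes do not show a mammary origin.

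Of 23 epithelial regulators 13 were analysed and 11 were at or above 1 TPM, beside 89.7% of all genes. Their median was 6.05 TPM, beside 23.3 TPM for all genes. Cd9, a tetraspanin, was at 598 ± 19.9 TPM, Spint2, an inhibitor of serine proteases, at 280 TPM, Cd24a, a surface glycoprotein, at 141 TPM and Klf5, a zinc-finger factor of proliferating epithelium, at 91.2 TPM. The splicing regulator Esrp2 was at 6.06, 6.32 and 5.77 TPM, and Grhl2, a factor that maintains epithelial junctions, was at 1.46, 2.11 and 1.31 TPM. Grhl1 was lowest at 0.458 TPM. Esrp1, Ovol1, Ovol2, Elf5 and Ehf were not analysed here.

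Mesenchymal genes were present beside the keratins, and they were uneven. Of 33 listed, 21 were analysed and 17 were at or above 1 TPM, beside 89.7% of all genes. Their median was 37.9 TPM, beside 23.3 TPM for all genes. After Vim and S100a4, Axl, a receptor tyrosine kinase for Gas6, was highest at 467, 518 and 428 TPM. Fn1, which encodes fibronectin, was at 271, 266 and 248 TPM and Mmp14, a membrane-bound collagenase, at 152, 159 and 154 TPM. Sparc, a secreted matrix protein, was at 232, 489 and 213 TPM, so WT 2 stood above the other libraries.

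The transcription factors of epithelial-mesenchymal transition covered a wide range. Twist1 was at 53.6, 47.1 and 55.9 TPM, above Snai1 (23.8, 25.6 and 24.1 TPM) and Zeb2 (24.5, 24.8 and 24.1 TPM), which overlapped. Zeb1 lay near the limit at 0.0899, 0.131 and 0.0827 TPM, from 14, 21 and 12 counts. Cdh2 and Snai2 were not analysed here. Zeb2 was therefore the higher ZEB factor in each library, by more than the spread.

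The mammary programme was held by a few genes. Mfge8, a milk fat globule protein of mammary epithelium that bridges apoptotic cells to phagocytes, was at 415, 431 and 409 TPM. Gata3, the factor that specifies luminal cells, was at 63.0, 65.1 and 61.2 TPM. Stat5b, a factor of prolactin signalling, averaged 41.4 TPM, and Erbb2, the HER2 receptor, was at 41.2, 41.1 and 40.8 TPM. Cd14 (30.1 TPM) and Tfap2a (29.2 TPM) came next. Esr1, the estrogen receptor, was at 4.10, 3.66 and 4.07 TPM, and its pioneer factor Foxa1 at 0.989, 0.781 and 1.04 TPM, from 81, 69 and 83 counts. The progesterone receptor gene Pgr and the prolactin receptor gene Prlr were not analysed here. In all, 16 of 30 listed genes were analysed and 15 were at or above 1 TPM, beside 89.7% of all genes. Their median was 14.8 TPM, beside 23.3 TPM for all genes.

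Of 15 milk and lactation genes 4 were analysed. Plin2, the coat protein of lipid droplets, was at 64.5, 59.8 and 60.5 TPM and Xdh, xanthine dehydrogenase, which also serves milk fat secretion, at 27.5, 30.7 and 29.0 TPM. Csn3, kappa-casein, was the casein analysed, at 10.7, 12.9 and 12.2 TPM. Lcn2, lipocalin-2, was at 3.05 TPM. The caseins Csn1s1 and Csn2, the whey protein gene Wap and Lalba were not analysed here.

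Basal and myoepithelial genes covered a wide range. Of 16 listed, 9 were analysed and 7 were at or above 1 TPM, beside 89.7% of all genes. The integrin chains Itgb1 (473 ± 12.1 TPM) and Itga6 (314 ± 5.24 TPM), which bind laminin together, and Procr, the protein C receptor, (195 ± 1.62 TPM) were each above 100 TPM. Itgb4, the partner of Itga6 in hemidesmosomes, was at 40.1 TPM. The contractile genes Mylk (16.7 TPM), Cnn1 (0.439 TPM) and Actg2 (0.217 TPM) were lower, and so were Nrg1 (9.84 TPM) and Des (1.305 TPM). Trp63 and Acta2, the defining basal factor and smooth muscle actin, were not analysed here.

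Most listed markers of other cell types were not analysed here, but Eng and Pdgfra lay above the median of 23.3 TPM for all genes. Of 18 macrophage and myeloid markers 5 were analysed, and their summed level was 33.9 to 36.5 TPM, most of it from Cd68 (23.1 TPM), a lysosomal protein that other cells also use, and S100a8 (10.3 TPM). Lyz2, lysozyme, was at 1.31, 2.44 and 1.23 TPM. The leukocyte marker Ptprc and the macrophage markers Adgre1 and Csf1r were not analysed here. Of 15 lymphocyte markers 2 were analysed, with a sum of 1.09 to 1.34 TPM: Lck, a T-cell kinase, at 1.16, 1.0 and 0.950 TPM and Cd79a, a B-cell receptor chain, at 0.137 TPM. Of 11 endothelial markers 4 were analysed, with a sum of 83.5 to 88.0 TPM. Eng, a TGF-beta co-receptor, was at 69.4 TPM and Cdh5, VE-cadherin, at 11.1, 11.6 and 11.5 TPM from 1131, 1273 and 1141 counts, whereas Pecam1 and Kdr were not analysed here.

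Among 9 fibroblast markers, Pdgfra (36.1 ± 0.769 TPM) and Col1a1 (4.26 ± 0.72 TPM) were analysed, with a sum of 39.7 to 40.8 TPM, and Dcn and Lum were not analysed here. Of 6 adipocyte markers Fabp4 alone was analysed, at 0.367, 0.452 and 1.01 TPM from 6, 8 and 16 counts. None of 7 erythroid markers was analysed. Whether the levels of these markers came from the 4T1 cells or from other RNA was not tested.

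**Figure D3:**
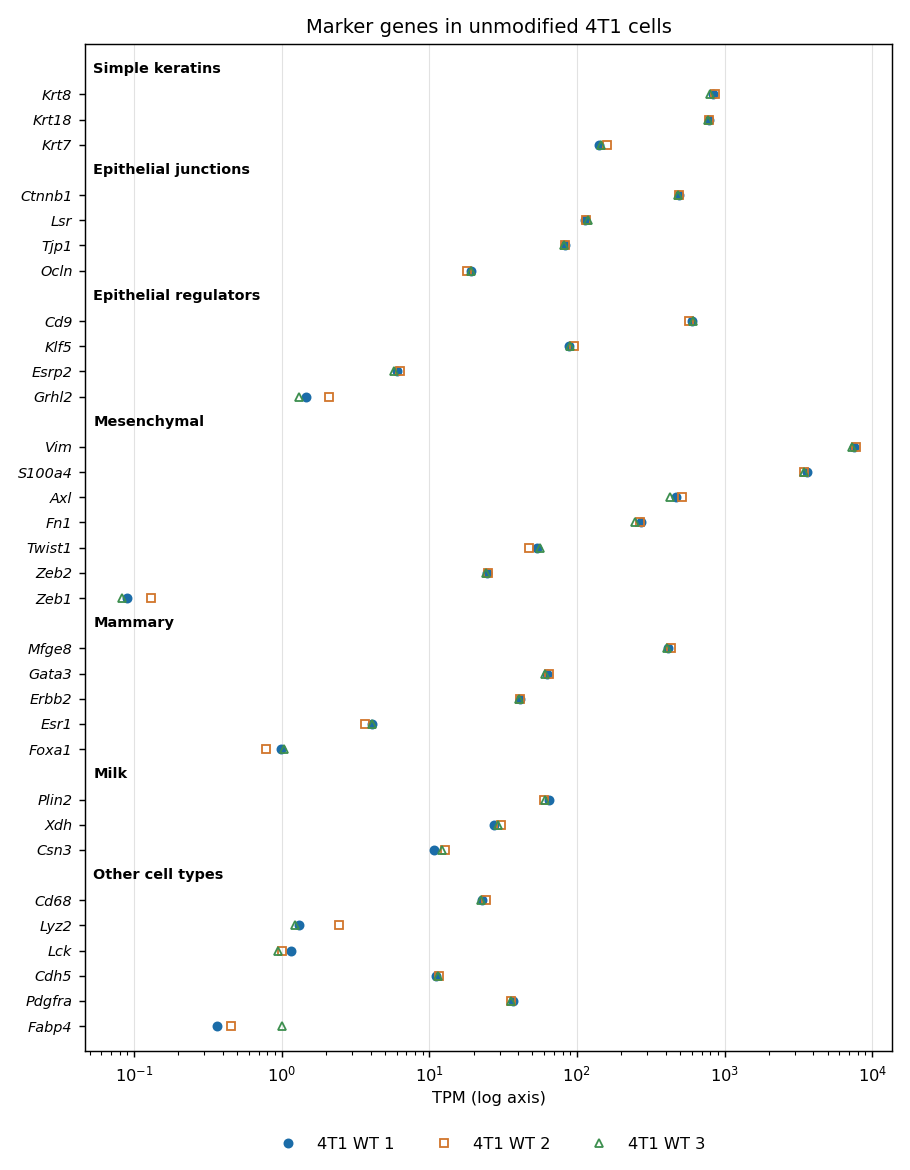
TPM (x axis, log scale) of marker genes in each WT library, grouped by list; each symbol is 1 library. Keratins Krt8 and Krt18 and the mesenchymal genes Vim and S100a4 were all above 700 TPM, whereas Grhl2, Foxa1, Zeb1, Lyz2, Lck and Fabp4 were below 3 TPM in every library.

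Receptor tyrosine kinases, which carry growth signals from outside the cell, were led by Axl and Epha2. Epha2, an ephrin receptor, was at 257, 273 and 253 TPM, followed by Ryk (126 TPM), a Wnt receptor, Fgfr2 (93.6 TPM), Ptk7 (78.9 TPM) and Met (73.2 ± 1.28 TPM), the receptor of hepatocyte growth factor. Of 40 listed receptors 25 were analysed and 21 were at or above 1 TPM, beside 89.7% of all genes. Their median was 22.6 TPM, beside 23.3 TPM for all genes. The lowest receptor was Alk at 0.0428 TPM, and Egfr was not analysed here. The highest receptor kinase ligands belonged to the EGF family. Areg, amphiregulin, was at 154, 145 and 142 TPM and Hbegf at 114, 106 and 113 TPM, without overlap. Vegfb (78.6 TPM), Pdgfa (74.9 TPM), Efnb2 (63.0 TPM) and Tgfa (51.7 TPM) came next of 24 ligands analysed, and Fgf7 was lowest at 0.207 TPM.

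In the TGF-beta family, 36 of 47 listed genes were analysed and 34 were at or above 1 TPM, beside 89.7% of all genes. Tgfb1 itself was at 122 ± 2.09 TPM, below Bmp1 (181 TPM), the procollagen protease, and Ltbp4 (142 TPM), a latent TGF-beta binding protein. The BMP targets Id1 and Id3 were at 138 and 137 TPM, and Fstl1 was lowest at 0.0487 TPM. Of 51 Wnt genes 30 were analysed, and after Ctnnb1 and Ryk the highest were the receptors Fzd6 (103 TPM) and Lrp5 (81.4 TPM) and the ligand Wnt7b (84.2 TPM), with Wnt1 lowest at 0.235 TPM. Of 29 Notch and Hedgehog genes 20 were analysed. Rbpj, the DNA-binding partner of Notch, was at 101 TPM and the Hedgehog transducer Smo at 70.9 TPM, whereas Notch3 was at 0.602 TPM.

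Secreted signals were dominated by Spp1, which encodes osteopontin. It was at 3118, 2978 and 2886 TPM in WT 1, 2 and 3. Mif, macrophage migration inhibitory factor, was at 1343, 1407 and 1261 TPM and Tslp, a cytokine of epithelial cells, at 492, 462 and 495 TPM. Colony-stimulating factors and chemokines that act on myeloid cells were lower. Csf1 was at 98.7 TPM, Cxcl1 at 44.5 TPM, Ccl2 at 31.5, 24.2 and 30.6 TPM and Csf3 at 11.5, 12.8 and 11.6 TPM. Csf2, Il6 and Il1b were not analysed here. Of 42 listed ligands 24 were analysed and 21 were at or above 1 TPM, beside 89.7% of all genes. Tnfsf10 was lowest at 0.183 TPM. Among 38 receptors analysed, Tnfrsf12a, the receptor of TWEAK, was highest at 520, 564 and 552 TPM. Ltbr (76.7 TPM), Tnfrsf1a (64.3 TPM) and Il6st (62.9 TPM), the shared chain of interleukin-6 type receptors, followed after Cd44, and Il22ra1 was lowest at 0.0174 TPM.

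In the RAS, RAF and MAP kinase list 36 of 37 genes were analysed and 35 were at or above 1 TPM, with a median of 56.1 TPM, beside 89.7% and 23.3 TPM for all genes. Map2k3 (229.9 TPM), Dusp6 (225 TPM), a phosphatase that switches off ERK, Mapk3 (188 TPM), Shc1 (114 TPM) and Map2k1 (109 TPM) were among the highest and Mapk10 was lowest at 0.0934 TPM. In the PI3K list 30 of 31 genes were analysed, led by Eif4ebp1 (378 TPM), the translation repressor inhibited by mTOR, and Akt1 (287 TPM), with Pik3r3 lowest at 0.459 TPM. Of 35 cell cycle regulators and tumour suppressors 29 were analysed, and Ccnd1, cyclin D1, was at 1682, 1662 and 1732 TPM and its partner Cdk4 at 645 ± 10.4 TPM. Myc was at 200.3, 214 and 199 TPM and Trp53 at 58.0, 59.4 and 59.9 TPM, with Mxd1 lowest at 2.58 TPM, and Cdkn2a and Cdkn2b were not analysed here. Of 38 STAT, NF-kB, AP-1 and YAP factors 36 were analysed and all of these were at or above 1 TPM, beside 89.7% of all genes. The highest were Atf4 (373 TPM), a factor of the amino acid response, and Fosl1 (253 TPM), an AP-1 subunit, with Fos lowest at 3.10 TPM.

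From aldolase to lactate dehydrogenase, 1 isoenzyme held most of the TPM of each family. Aldoa, the aldolase of muscle and most dividing cells, was at 2231, 2118 and 2081 TPM, against 6.65, 5.05 and 5.49 TPM of Aldoc. The log2 ratio of Aldoa over Aldoc was 8.56 ± 0.161 (SD, n = 3). Ldha, the lactate dehydrogenase subunit that favours lactate formation, was at 3214, 2927 and 2932 TPM, against 26.6, 29.6 and 26.6 TPM of Ldhb, a log2 ratio of 6.78 ± 0.144. Eno1 (2708 TPM) made up 93.6% of enolase TPM, beside Eno3 (159 TPM), Eno2 (25.6 TPM) and Eno1b (0.0592 TPM), and the log2 ratio of Eno1 over Eno2 was 6.73 ± 0.0787. Ldhd, which acts on D-lactate, was at 3.40 TPM. Pgk1 (1293 TPM), Pgam1 (642 TPM), Pkm and the lactate carrier gene Slc16a1 (122 TPM) were the only members of their families analysed. Tpi1 was at 1311 TPM and Gapdh at 1135 TPM.

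The entry steps of glycolysis were more mixed. Hk1, the hexokinase of most tissues, was at 99.5, 99.5 and 95.3 TPM and made up 67.2% of hexokinase TPM. Hk2, the hexokinase of muscle and many tumours, was lower at 48.8, 49.6 and 45.0 TPM, and the log2 ratio of Hk2 over Hk1 was -1.04 ± 0.0399 (SD, n = 3). Pfkl, the liver type, was at 229 TPM, Pfkp, the platelet type, at 110 TPM and Pfkm, the muscle type, at 54.1 TPM, without overlap between neighbours. The log2 ratio of Pfkp over Pfkl was -1.07 ± 0.122, and it was -2.17 from counts per kilobase of the longest annotated transcript. The 4 bifunctional PFKFB enzymes lay between 3.01 and 5.37 TPM, and Pfkfb1, Pfkfb2 and Pfkfb3 overlapped as neighbours. Slc2a1, the GLUT1 glucose transporter, was at 139, 132 and 135 TPM, followed by Slc2a9 (19.8 TPM), Slc2a8 (5.52 TPM) and Slc2a6 (0.401 TPM). Slc2a3 was near the limit with 8, 7 and 19 counts (0.108 TPM), and its log2 ratio is unstable for that reason (10.5 for Slc2a1 over Slc2a3, 6.94 with 1 TPM added to both).

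At the branch to glycerol-3-phosphate, Gpd2 was the highest of its family. Gpd1l, the cytosolic Gpd1-like enzyme, was at 29.5, 31.4 and 32.4 TPM, below Gpd2 in every library. The log2 ratio of Gpd2 over Gpd1l was 0.74 ± 0.0609 (SD, n = 3). Gpd1, the classical cytosolic enzyme, was near the limit at 0.211, 0.268 and 0.0803 TPM, from 15, 21 and 6 counts. Gpd2 thus held 62.4%, Gpd1l 37.4% and Gpd1 0.225% of the TPM of the family.

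Mitochondrial members were the higher ones in several shared reactions. Idh2, the mitochondrial NADP isocitrate dehydrogenase, was at 379, 394 and 372 TPM, against 45.5, 44.7 and 46.6 TPM of the cytosolic Idh1, a log2 ratio of 3.07 ± 0.0722 (SD, n = 3). Mdh2 (803 TPM) exceeded Mdh1 (260 TPM), and Got2 (415 TPM) exceeded Got1 (83.6 TPM). Me2, a mitochondrial malic enzyme, was at 117 TPM, above the cytosolic Me1 at 49.9 TPM, and Me3 was at 0.443 TPM. The log2 ratio of Me1 over Me2 was -1.23 ± 0.0436. Pdk1 (59.2 TPM) and Pdk3 (39.1 TPM) were the main pyruvate dehydrogenase kinases, above Pdk2 (3.37 TPM). The ADP/ATP carriers Slc25a5 and Slc25a4 were at 1241 and 973 TPM, and their ranges did not overlap. Their log2 ratio was 0.35 ± 0.0175, and it was 1.21 from counts per kilobase of the longest annotated transcript.

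Subunits of cytochrome oxidase and the outer membrane channels were of the general type. Cox6a1 was at 586 TPM, against 2.47 TPM of the muscle form Cox6a2, and Cox4i1 (863 TPM) was the one form analysed. Cox7a2 and the related Cox7a2l were at 257 and 251 TPM and overlapped. Vdac1, Vdac2 and Vdac3 were at 538, 457 and 331 TPM and were separate.

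In lipid metabolism, Scd2, a stearoyl-CoA desaturase, was at 541, 532 and 567 TPM and made up 89.5% of its family, against 53.2 TPM of Scd1, 8.11 TPM of Scd3 and 3.03 TPM of Scd4. Acaca (55.6 TPM), the cytosolic acetyl-CoA carboxylase, exceeded Acacb (2.43 TPM) by a log2 ratio of 4.52 ± 0.123 (SD, n = 3). Cpt1a was at 18.6 TPM and Cpt1b at 1.94 TPM. Acsl5 led the acyl-CoA synthetases at 159 TPM, while Acsl3 (51.6 TPM), Acsl4 and Acsl1 (30.7 TPM) overlapped as neighbours, since Acsl4 was at 56.4, 28.9 and 30.6 TPM. The prostaglandin synthases Ptgs2, the inducible form, and Ptgs1, the constitutive form, were at 101 ± 5.53 and 93.7 ± 2.37 TPM and overlapped. Pygb (52.4 TPM), the brain type of glycogen phosphorylase, exceeded the muscle type Pygm (0.154 TPM), and Gys1 was at 61.6 TPM.

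**Figure D4:**
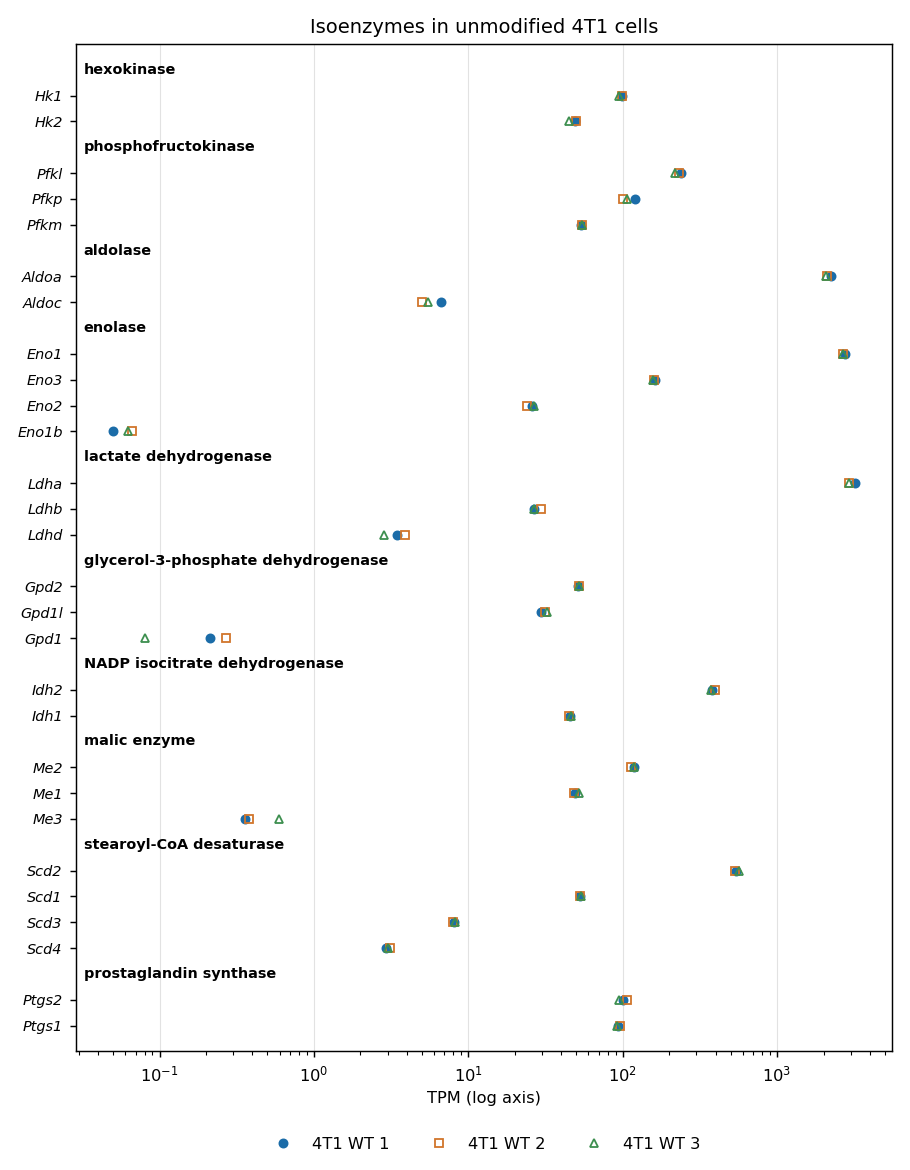
TPM (x axis, log scale) of the members of 10 enzyme families in each WT library; each symbol is 1 library and the members of a family run from high to low. Aldoa, Eno1 and Ldha lay over 1000 TPM with the next member averaging 159 TPM or less, whereas Ptgs2 and Ptgs1 overlapped.

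Other families showed the same contrast between 1 dominant member and several. Atp2a2, the SERCA2 calcium pump, was at 314 TPM, beside Atp2a3 (0.153 TPM) and Atp2a1 (0.0789 TPM). Sod1 (947 TPM) exceeded the mitochondrial Sod2 (32.2 TPM). Dnmt1, the maintenance DNA methyltransferase, was at 224 TPM, against 11.1 TPM of Dnmt3a and 4.61 TPM of Dnmt3b. Akt1 (287 TPM) exceeded Akt2 (84.2 TPM) by a log2 ratio of 1.77 ± 0.0487 (SD, n = 3). Ccnd1 exceeded Ccnd3 (94.7 TPM) by 4.16 ± 0.0315 and Ccnd2 was at 41.0 TPM. Myh9 (212 TPM) exceeded Myh10 (73.7 TPM) by 1.52 ± 0.00883, with Myh14 at 2.45 TPM.

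Cytoskeletal and redox families were shared among several members. Tpm1 (599.6 TPM), Tpm4 (524 TPM) and Tpm3 (343 TPM) were each abundant, with Tpm2 at 1.02 TPM. Actn4 (443 TPM) and Actn1 (216 TPM) exceeded Actn3 (0.0837 TPM). All 6 peroxiredoxins were above 100 TPM, a level that 1847 of all 12534 genes reached. Their order was Prdx1 (984 TPM), Prdx5 (372 TPM), Prdx2 (330.4 TPM), Prdx4 (251 TPM), Prdx3 (136 TPM) and Prdx6 (127 TPM), and Prdx3 and Prdx6 overlapped. Among amino acid carriers Slc7a5, LAT1, was at 206 TPM and Slc7a6 at 69.9 TPM, while Slc7a11, the cystine carrier, was at 4.29, 5.04 and 5.27 TPM and Slc7a7 at 2.59 TPM. Arg2 was at 1.28 TPM. Across 36 families with at least 2 members analysed, the first member held over 90% of the family TPM in 12 and under 60% in 11, and 59 of 67 neighbours in order had ranges that did not overlap. No creatine kinase gene was analysed.

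Levels agreed closely between libraries for most genes. Among genes at or above 10 TPM the median coefficient of variation was 3.51%, and 136 genes (1.58%) had one above 20%. In each of the 10 genes with the largest coefficients 1 library stood apart. Rps27rt, a retrogene copy of the ribosomal protein gene Rps27, was at 1839, 23.5 and 20.4 TPM in WT 1, 2 and 3, whereas Rps27 was at 13.9, 1539 and 1944 TPM. Their sum was 1853, 1562 and 1964 TPM, so the libraries differed in which of the 2 near-identical entries held the reads, and the level of either alone is uncertain. Leaving out WT 1 gave a mean of 22.0 TPM for Rps27rt and 1741 TPM for Rps27.

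Jund, an AP-1 factor, was at 89.5, 1.59 and 96.0 TPM, and LOC106557447 dropped in the same library at 68.3, 0.482 and 74.0 TPM. H2-L, an MHC class I gene, was at 12.6, 16 and 89.2 TPM and Cd44, the hyaluronan receptor, at 112, 112 and 308 TPM, so WT 3 was high in both. The mean of Cd44 was 177 TPM and was 112 TPM without WT 3. Sumo3, a ubiquitin-like modifier, was at 48.0, 152 and 47.6 TPM, with a mean of 82.6 TPM that was 47.8 TPM without WT 2. Gm12191 was at 21.3, 26.9 and 2.37 TPM, Tspan14, a tetraspanin, at 16.2, 15.2 and 45.7 TPM, and Raet1c, a ligand of the NKG2D receptor, at 9.74, 6.86 and 23.4 TPM. Without WT 3 the mean was 14.3 TPM for H2-L, 15.7 TPM for Tspan14 and 8.30 TPM for Raet1c, against 39.3, 25.7 and 13.3 TPM with it. What set these single libraries apart was not tested.

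**Figure D5:**
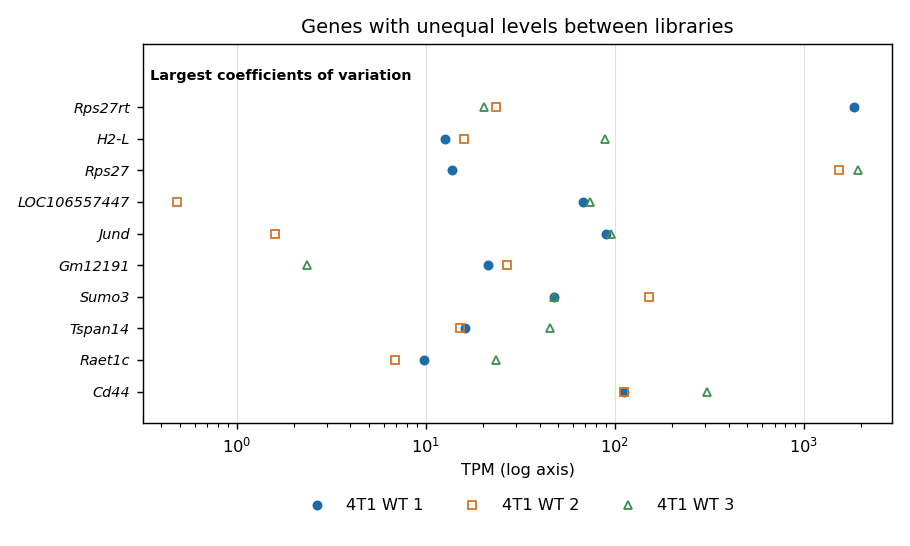
TPM (x axis, log scale) in each WT library of the 10 genes with the largest coefficient of variation among genes at or above 10 TPM; each symbol is 1 library. Rps27rt was at 1839 TPM in WT 1 and Rps27 at 13.9 TPM, with the opposite in WT 2 and WT 3, and Jund was low in WT 2.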

How the data were processed

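The series holds 6 RNA libraries of 4T1 cells, and the 3 labelled WT were described here. Per the submitters' processing notes, the authors used Trimmomatic 0.38, HISAT2 2.1.0 on the mm10 build and StringTie 1.3.4d. The deposited table holds TPM values, which the authors computed per library, and whole-number read counts, which they did not normalize. Whether counting used strand was not stated, so a gene and an antisense partner may hold each other's reads. The deposited signed fold changes, p-values and group means of the authors' KO against WT comparison were not used, and neither were FPKM and normalized log2 values, 18 columns in all.

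Mean, SD and rank of TPM were computed over the WT libraries with Python, pandas and numpy. Genes were matched to RefSeq by Entrez identifier (12509 of 12534), and lengths came from GENCODE for 93.8%. Class shares, band counts and the noise statistic were tested on simulated data. The genes named were the 30 highest, all members of the isoenzyme families, up to 6 highest members, the lowest and the defining members of each list, and the 10 most variable genes at or above 10 TPM. A few genes that this rule selects are left unreported. Others were named after their values were seen, as were the genes whose start sequences are printed. The lists and classes were chosen with earlier results of these data known. Alternatives changed the mean, the unit, the filter, the pseudocount or the libraries used.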

Additional observations from a re-analysis of the deposited data

How the results depend on the processing

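Counts of genes at or above 1, 10, 100 and 1000 TPM stayed within 1.5 times under the median, under a minimum of 10 counts and without each replicate. Class shares moved by more than the spread of the libraries in 48 comparisons and stayed within it in 67. Every share with a replicate left out stayed within it. By reads, not per length, ribosomal proteins held 6.36%, translation factors 3.86%, chaperones 3.16%, annexins, S100 proteins and galectins 1.20%, and glycolysis 1.48%. By counts per kilobase of the longest annotated transcript they held 14.8%, 4.53%, 3.04%, 3.44% and 1.90% in the same order. Without predicted genes, ribosomal proteins held 17.6%, translation factors 4.37% and annexins, S100 proteins and galectins 3.01%. Chaperones (3.55%) and glycolysis (1.71%) then stayed within the spread. With retrogene and pseudogene entries added, an alternative chosen after seeing the data, ribosomal proteins held 17.5%.

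No isoenzyme ratio changed direction by counts per kilobase of the longest transcript. Every ratio had the same direction in each WT library, so leaving out a replicate or adding 1 TPM to both could not reverse it. By counts per kilobase of the longest transcript, log2 ratios were -0.996 for Hk2 over Hk1, -2.17 for Pfkp over Pfkl, 6.61 for Eno1 over Eno2, 6.63 for Ldha over Ldhb, 1.21 for Slc25a5 over Slc25a4, -0.79 for Me1 over Me2 and 5.14 for Ccnd1 over Ccnd3. With 1 TPM added they were 8.32 for Aldoa over Aldoc, 6.94 for Slc2a1 over Slc2a3, 4.05 for Acaca over Acacb and 1.51 for Myh9 over Myh10. Lymphocyte markers at or above 1 TPM numbered 0 when every WT library had to reach it, and between 0 and 1 when a replicate was left out, with 0 without replicate 1. The cause of these shifts was not tested. No paired analysis was possible because no groups were compared by a test.

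Depth limits the genes with few counts, such as Zeb1, Gpd1 and Slc2a3. Near-identical copies share reads, and TPM of genes with several transcripts depends on the transcript model. Whether differences between the BALB/c line and the mm10 build moved reads, as in MHC class I genes, was not tested. TPM gives shares of RNA and no amount per cell, and 3 libraries of 1 line do not show how 4T1 cultures vary.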

Other observations

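For each list of Hox, imprinted and other-lineage genes, most members were not analysed here. In single libraries the analysed members summed to between 16.4 TPM (muscle genes) and 925 TPM (imprinted genes, led by Gnas). Of 39 Hox genes, which give cells their position along the body axis, 9 were analysed and all lay in the Hoxa cluster. Hoxa5 was highest at 55.9, 56.6 and 58.3 TPM in WT 1, 2 and 3, followed by Hoxa3 (21.1 TPM), Hoxa10 (20.3 TPM), Hoxa6 (17 TPM), Hoxa2 (14.7 TPM) and Hoxa7 (10 TPM), and Hoxa9 was lowest at 0.861 TPM. Nes, which encodes the intermediate filament nestin of progenitor cells, was at 115, 116 and 106 TPM, while 19 of 24 neuronal genes were not analysed here. Afp, the fetal liver protein alpha-fetoprotein, was at 58.9, 55.9 and 58.6 TPM from 3132, 3217 and 3031 counts, and of 19 hepatocyte genes the other one analysed was Apoe at 14.3 TPM. Dppa4, a gene of pluripotent cells, was at 19.8, 20.2 and 16.2 TPM and Tex101, a germ cell surface protein, at 13.2 TPM. Gnas, the stimulatory G protein subunit from an imprinted locus, was at 777 ± 18.4 TPM (SD, n = 3), above Phlda2 (45.8 TPM) and Igf2r (41.2 TPM). Psg17, a pregnancy-specific glycoprotein, was at 13 TPM and Prl2c2, a prolactin relative of the placenta also called proliferin, at 6.85 TPM. Tnnt2, cardiac troponin T, led the muscle genes at 11.1 TPM.

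Long non-coding RNAs numbered 403 and held 0.392% of TPM, against 98.6% for 11652 protein-coding genes. Neat1, the scaffold of paraspeckles, was highest at 266 ± 15.9 TPM (SD, n = 3). The snoRNA hosts Snhg1 (224 TPM) and Gas5 (154 TPM) followed, above Zfas1 (111 TPM), Snhg5 (111 TPM) and Malat1 (93.6 TPM). Secreted and surface genes outside the lists included Mmp3, the matrix protease stromelysin-1, at 1872, 1755 and 1815 TPM, Igfbp4, a binding protein of insulin-like growth factors, at 1591 TPM, and Ctsl, cathepsin L, at 1700, 1777 and 1568 TPM. These genes were chosen after their values were seen.

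Some copies named as pseudogenes stood above their parent genes. Rpl34-ps1 was at 1755, 1726 and 1878 TPM, against 146, 125 and 114 TPM of Rpl34. Oaz1-ps was at 584 TPM on average, against 6.72 TPM of Oaz1, the antizyme that limits polyamine synthesis. Reads of such near-identical copies can be placed on either entry, so the level of each alone is uncertain. Rn45s, the ribosomal RNA precursor, was at 482, 528 and 1348 TPM and was highest in WT 3, with a mean of 505 TPM without that library and 786 TPM with it.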
